A study of Mus musculus with 18 samples.

Results

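The comparison set the 3 arrays of Pitx3 positive cells against the 3 arrays of Hes5 positive cells, 6 of the 18 arrays of the series. They were chosen by their titles and compared without pairs after normalization between arrays. All cells came from mouse embryonic stem cells of strain J1 that had been differentiated toward midbrain dopamine neurons. Each line carried a bacterial artificial chromosome in which a fluorescent protein is driven by the regulatory region of 1 gene, GFP under Hes5 in the one line and YFP under Pitx3 in the other. The cells were sorted by fluorescence at day 14 to 15, and RNA of each fraction was hybridised to Illumina BeadArrays. The 3 negative arrays of each line were measured the same way, and the Nurr1::GFP line gave 3 further positive arrays. Stage and line changed together in the comparison, so the differences are set beside those between the negative cells of the same lines. The negative fractions were left by sorts on different reporters, so line and sort cannot be told apart between them. A reporter marks cells whose transgene is active or whose protein persists, not a pure cell type. Whether a line is 1 clone is not given in the sources used here, nor whether replicates are separate differentiations, so p-values measure only the spread between these arrays.

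Midbrain dopamine neurons arise from floor plate cells, radial glia-like progenitors of the ventral midline that express Lmx1a, Foxa2, Corin and Shh. While progenitors divide, Notch receptors on their surface are activated by ligands such as Dll1 on neighbouring cells, and the released Notch fragment turns on repressors of the Hes family, among them Hes5, which hold back neuronal genes. Cells that escape Notch signalling leave the cell cycle and switch on Nr4a2 (the Nurr1 protein), then Pitx3, and with them the enzymes and transporters of dopamine: Th, the rate-limiting enzyme of its synthesis, Ddc, which makes dopamine from L-DOPA, Slc18a2, which loads it into vesicles, and Slc6a3, which takes it up again. Serotonin and GABA neurons, glia and leftover pluripotent cells can arise in the same cultures. In bulk samples, fewer cells of a type and less RNA per cell cannot be told apart.

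The promoters of the genes that drive the reporters and of Th are shown because their transcripts mark the ends of the series. Each run covers 250 bases before to 50 after the start of the gene, 5′ to 3′ on its strand, from RefSeq on build GRCm38.p6. Capitals mark GTGGGAA, the core sequence bound by RBPJ, the DNA-binding partner of Notch (in Hes5), and TGACGTCA, the cAMP response element (in Th), each searched on both strands.
Hes5, chr4:154960673-154960972, plus strand: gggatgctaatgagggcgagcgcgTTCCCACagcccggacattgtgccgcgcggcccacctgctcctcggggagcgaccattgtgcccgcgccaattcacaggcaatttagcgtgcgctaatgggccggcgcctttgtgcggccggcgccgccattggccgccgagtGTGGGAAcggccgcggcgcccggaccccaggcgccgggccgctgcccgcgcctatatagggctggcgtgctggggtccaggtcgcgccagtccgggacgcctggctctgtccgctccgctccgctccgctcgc
Pitx3, chr19:46148276-46148575, minus strand: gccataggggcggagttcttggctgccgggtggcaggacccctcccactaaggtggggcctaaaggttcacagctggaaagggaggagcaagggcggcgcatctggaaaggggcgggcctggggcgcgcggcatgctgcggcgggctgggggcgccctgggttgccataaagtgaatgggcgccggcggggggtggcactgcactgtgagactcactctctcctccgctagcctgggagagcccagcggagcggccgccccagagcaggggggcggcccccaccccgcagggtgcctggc
Th, chr7:142899946-142900245, minus strand: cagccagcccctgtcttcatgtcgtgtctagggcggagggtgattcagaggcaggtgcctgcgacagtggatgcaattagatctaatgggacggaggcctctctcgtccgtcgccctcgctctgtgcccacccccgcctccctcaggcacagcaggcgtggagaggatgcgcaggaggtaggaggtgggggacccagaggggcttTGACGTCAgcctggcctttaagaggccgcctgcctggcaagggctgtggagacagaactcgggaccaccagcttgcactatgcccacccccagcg
Hes5 held GTGGGAA on both strands, with first bases 226 and 83 bases before the start. Of 32851 mouse promoters of the same length, 6.38% held it. The palindrome TGACGTCA of Th began 45 bases before the start and was present in 1.79% of promoters. The Pitx3 window held neither, nor AAAGGTCA, the sequence bound by Nr4a factors (1.51% of promoters), or TAATCC, bound by Pitx and Otx factors (7.06%). A match describes letters only and says nothing of binding in these cells.

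The 18 arrays had median probe intensities of 40.6 to 60.2 and 33.5% to 37.4% of probes detected. Pitx3 positive replicates 2 and 3 had the lowest detection, 34.0% and 33.5%, against 35.7% to 37.4% in Hes5 positive arrays. Some of the 12 arrays of the lines compared stood apart from others of their group. Pitx3 positive replicate 1 correlated at 0.976 with its own negative fraction, against 0.925 for replicate 2 and 0.948 for replicate 3. It correlated at 0.957 with Hes5 positive replicate 2, more than with replicates 2 and 3 of its own group (0.902 and 0.939). Hes5 positive and negative replicate 2 correlated at 0.981, against 0.925 and 0.965 for the Hes5 fractions of replicates 1 and 3. Pitx3 positive replicate 1 carried more RNA of dividing cells than the others of its group (Mki67 at 9.70, against 4.97 and 7.81 in replicates 2 and 3, all normalized log2 intensities). Hes5 positive replicate 1 had less floor plate RNA, with Lmx1a at 4.95, not above background, against 11.81 and 11.04 in replicates 2 and 3. Hes5 positive replicate 2 held dopaminergic RNA, with Th at 10.66 and Slc6a3 at 9.29. Hes5 negative replicate 2 is called GFP-negative by its title and genotype and GFP-positive by its source name. It was kept as negative, and some results that rest on it are also given without it.

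Of 12650 genes tested, 545 passed limma's test between the positive fractions at an adjusted p under 0.05, which also defines a call below. Pitx3 positive cells were higher for 259 genes (2.05%) and lower for 286 (2.26%). Unadjusted p-values were under 0.05 for 3182 genes. The called differences were large, with medians of 1.43 for the higher and -1.61 for the lower genes on the log2 scale, and at least 2-fold for 75.7% and 81.1% of them. The arrays of the groups did not overlap for all 259 and for 284 of 286 called genes, against 13.8% and 13% of all genes that were so separated in each direction. The calls came from these same arrays, so this separation is no separate evidence for them. Of the higher genes, 90 carry clone, RIKEN or predicted names and are not named here.

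The number of calls depended on the arrays. It was 78 without Pitx3 positive replicate 2, 109 without Pitx3 positive replicate 3, 91 without Hes5 positive replicate 1 and 165 without Hes5 positive replicate 3. It was 857 without Hes5 positive replicate 2, 1102 without Hes5 negative replicate 2 and 1528 without Pitx3 positive replicate 1. With the 6 positive arrays fitted alone 4 genes passed, and with the 12 arrays of these lines 204. Higher genes made up 47.5% of the calls, against 27.3% of 388 calls without normalization between arrays and 26.7% of 344 calls in the authors' log2 table. In those scalings the median of all genes was shifted by -0.20 and -0.18 log2.

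The genes that mark dopamine neurons stood out at the Pitx3 end. Th was 12.78, 14.25 and 13.35 in Pitx3 positive replicates 1 to 3 and 5.72, 10.66 and 8.50 in Hes5 positive replicates 1 to 3. The groups did not overlap, although Hes5 positive replicate 2 reached within 2.12 log2 of the lowest Pitx3 positive array. The difference was 5.16 log2 (SE 1.26, adjusted p = 0.033), or 35.9-fold. Over 23 other settings it ranged from 3.88 to 6.35 log2, and it was called in 16 of them (adjusted p 0.00495 to 0.166). Between the negative fractions of the lines Th differed by 0.68 (SE 1.26, adjusted p = 0.856). Without Hes5 negative replicate 2 that negative difference was 1.78 (SE 1.29, adjusted p = 0.418).

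Slc6a3, the dopamine transporter, was 7.57, 14.14 and 11.05 in Pitx3 positive cells and 4.67, 9.29 and 4.82 in Hes5 positive cells. Of these Hes5 positive arrays only replicate 2 was above background. The groups overlapped, since Pitx3 positive replicate 1 lay below Hes5 positive replicate 2, and the difference of 4.66 (SE 1.57) did not pass (adjusted p = 0.0919). Without Pitx3 positive replicate 1 it was 6.33 (SE 1.5, adjusted p = 0.016), and over 23 settings the adjusted p ranged from 0.016 to 0.381. Ddc was 13.54, 14.36 and 14.04 against 8.97, 12.54 and 10.37, higher by 3.35 (SE 0.80, adjusted p = 0.0295). Drd2, the dopamine D2 receptor, was 7.26, 9.11 and 7.59 against 6.23, 5.70 and 5.84, higher by 2.06 (SE 0.40, adjusted p = 0.0133). In negative cells Ddc differed by 1.14 and Drd2 by 0.02, and neither passed. Of 10 measured genes of dopamine synthesis, storage and uptake, these 3 (Th, Ddc and Drd2) were called higher and none lower, with a list median of 1.55 against 0.00 for all genes. The share of all genes called higher was 2.05%. Slc18a2 stood at 2.3 in the positive and 1.77 in the negative comparison, and neither passed (adjusted p = 0.115 and 0.6).

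**Figure D1:**
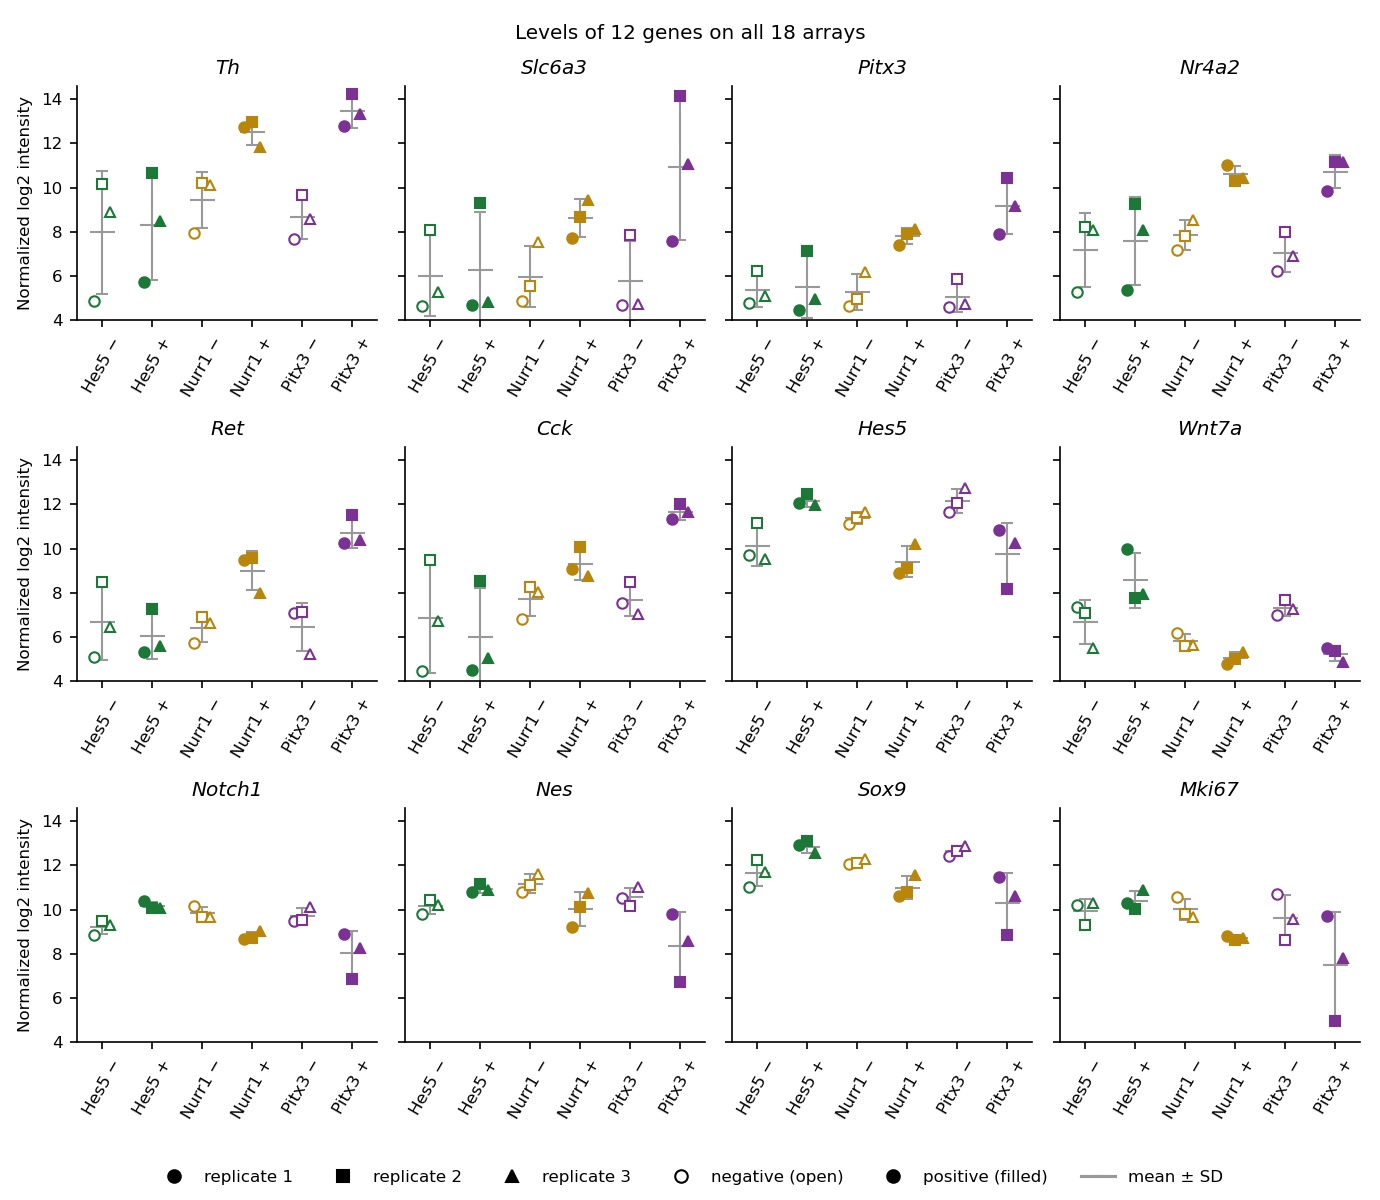
Normalized log2 intensity (y axis) of 12 genes in the 6 groups (x axis; open symbols are negative, filled positive fractions, symbol shape gives the replicate, grey bars the mean and SD of 3 arrays). Th, Pitx3, Ret and Cck of the 3 Pitx3 positive arrays lie above every Hes5 positive array, Hes5, Wnt7a, Notch1, Nes and Sox9 below, and Mki67 spreads from 4.97 to 9.70 within the Pitx3 positive group.

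Among 12 measured transcription factors of dopamine neurons, 3 were called higher and none lower, with a list median of 1.51. Over all genes 2.05% were called higher and 2.26% lower. Pitx3 itself, a homeobox factor needed by substantia nigra neurons in mice, was 7.88, 10.43 and 9.17 in Pitx3 positive cells and 4.46, 7.14 and 4.96 in Hes5 positive cells, where only replicate 2 was above background. Its difference was 3.64 (SE 0.71, adjusted p = 0.0139), against -0.29 between the negative fractions. The engrailed genes, homeobox genes of the midbrain and anterior hindbrain, were the other members called. En1 was 13.06, 14.05 and 13.15 against 10.26, 12.04 and 10.56 (2.46, SE 0.57, adjusted p = 0.0261). En2 was 11.53, 11.91 and 12.06 against 10.58, 10.88 and 9.96 (1.36, SE 0.35, adjusted p = 0.0434), and was called in 9 of 23 other settings (adjusted p 0.01 to 0.176). Between the negative cells En1 differed by 1.18 and En2 by 0.68, neither of which passed, so that the same sign was seen in both fractions. Without Hes5 negative replicate 2 these negative differences were 1.81 (limma, adjusted p = 0.0668) and 1.16 (adjusted p = 0.0352), so that En2 then passed.

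Nr4a2 was 9.86, 11.16 and 11.16 in Pitx3 positive and 5.37, 9.26 and 8.07 in Hes5 positive cells. These arrays did not overlap, yet the difference of 3.16 (SE 0.89) missed the threshold (adjusted p = 0.0569), and it was called in 8 of 23 settings. The negative difference was -0.14. Lmx1a stood at 11.83, 12.13 and 12.35 against 4.95, 11.81 and 11.04, and Foxa2 at 9.86, 9.78 and 10.11 against 7.02, 9.69 and 8.88. For both, Hes5 positive replicate 2 came close to the lowest Pitx3 positive array and replicate 1 was far below, and neither difference passed (2.84 and 1.39, adjusted p = 0.236 and 0.129). The negative cells differed by 1.25 for Lmx1a and by 0.22 for Foxa2. Without Pitx3 positive replicate 1, 6 of the 12 factors were called higher, in a fit that called 640 of all genes higher (5.06%).

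Surface receptors and peptides gave some of the largest differences. Cck, the neuropeptide cholecystokinin, was 11.32, 12.02 and 11.65 in Pitx3 positive cells and 4.49, 8.51 and 5.05 in Hes5 positive cells. At 5.64 (SE 1.08, adjusted p = 0.0131) it was the largest rise by the rule for named genes, against 0.82 between the negative fractions. Of the Hes5 positive arrays only replicate 2 was above background for Cck, and likewise for Ret, so these sizes rest partly on background values. Without Hes5 negative replicate 2 the negative difference of Cck was 2.11 and did not pass (limma, adjusted p = 0.2). Ret, the receptor tyrosine kinase for the trophic factor GDNF, was 10.25, 11.51 and 10.38 against 5.33, 7.25 and 5.60, higher by 4.65 (SE 0.79, adjusted p = 0.00776), against -0.21 in the negative comparison. Its co-receptor Gfra1 was 6.34, 7.38 and 7.25 against 5.99, 6.20 and 6.07, higher by 0.90 (SE 0.23, adjusted p = 0.043) against 0.15 in negative cells, and called in 9 of 23 other settings (adjusted p 0.00175 to 0.234). Of 4 measured neurotrophic receptor genes these 2 were called, both higher, beside 2.05% of all genes.

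Chrna6, the nicotinic receptor subunit typical of dopamine neurons, was 6.93, 10.10 and 8.03 in Pitx3 positive cells and above background in no Hes5 positive array. For a gene above background (detection p under 0.01) on no array of 1 group, the difference is given as a bound against the lowest signal measured above background on those arrays, and Chrna6 was at least 5.89-fold higher (adjusted p = 0.00575). Chrnb4, another subunit, was 7.13, 7.33 and 8.01 against 5.34, 6.10 and 5.41, of which only 6.10 was above background. It was higher by 1.87 (SE 0.40, adjusted p = 0.0192). These were the called members among 5 nicotinic subunits, beside 2.05% of all genes called higher, and all 5 had a positive sign. Of 15 neuropeptides and granins, Cck and Vip were called higher. Vip, vasoactive intestinal peptide, was 6.51, 9.26 and 5.89 in Pitx3 positive cells, at least 2.69-fold higher (adjusted p = 0.0326), although only 2 of these 3 arrays were above background. In the negative comparison Chrna6, Chrnb4 and Vip differed by -0.13, -0.15 and 0.52, and none passed.

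Among the other large rises, Rit2, a neuronal GTPase of the Ras family, was 11.06, 12.45 and 11.36 against 6.62, 9.26 and 6.44 (4.18, SE 0.96, adjusted p = 0.0262), and 1.33 higher in the negative cells. Necab1, a neuronal calcium-binding protein, was 9.39, 10.28 and 10.24 against 4.58, 7.94 and 4.94 (4.15, SE 0.83, adjusted p = 0.0153). Rbm11, an RNA-binding protein, was 9.05, 9.34 and 9.67 against 5.24, 6.96 and 5.63 (3.41, SE 0.56, adjusted p = 0.00682). In the negative comparison Necab1 differed by 0.08 and Rbm11 by 1.12. In each of these 3 genes the highest Hes5 positive array was replicate 2, the array with dopaminergic RNA. Rgs9, a regulator of G protein signalling, Gpr158, an orphan receptor, Slc35d3, a solute carrier, Myrip, which links Rab27 to myosin, and Pgbd5, a gene derived from a transposase, were higher by 3.09, 3.04, 2.85, 2.75 and 2.74, with adjusted p-values of 0.029, 0.025, 0.00801, 0.02 and 0.00662. Between the negative cells these 5 differed by -0.42 to 0.82, and none passed. Necab1, Rbm11, Gpr158, Slc35d3 and Pgbd5 were above background in Hes5 positive replicate 2 alone of its group. Their sizes thus rest partly on background values.

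All 16 measured pan-neuronal and cytoskeletal genes had a positive sign in the positive comparison, with a median of 1.18, and none was called. All 16 also had a positive sign between the negative cells, with a median of 0.72. Of 28 synaptic vesicle and exocytosis genes, 26 had a positive sign (median 0.91) and the only call was a fall, of Slc32a1, the vesicular transporter of GABA. Slc32a1 was 7.72, 5.85 and 7.51 against 10.72, 8.13 and 9.85 (-2.54, SE 0.64, adjusted p = 0.0394). Among 15 ion channel genes, the calcium channel subunits Cacna2d3 (2.56, SE 0.59, adjusted p = 0.0262) and Cacng2 (at least 2.54-fold higher, adjusted p = 0.0288) and the sodium channel Scn3a (1.79, SE 0.41, adjusted p = 0.0254) were called higher and none lower. Cacng2 was above background in no Hes5 positive array. The calls over all genes were 2.05% higher and 2.26% lower. Between the negative cells Slc32a1 differed by 1.55, and Cacna2d3, Cacng2 and Scn3a by 1.07, 0.32 and 0.71, and none passed. Without Hes5 negative replicate 2, 5 of the 28 synaptic genes were called higher between the negative fractions. That fit called 264 of all genes higher (2.09%).

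In the positive comparison, the genes of neuronal commitment and axon guidance went both ways. There, 2.05% of all genes were called higher and 2.26% lower. Of 15 commitment genes, Ebf3, an early neuronal transcription factor, was called higher (10.69, 11.78 and 11.53 against 8.48, 9.84 and 8.38, a difference of 2.43, SE 0.54, adjusted p = 0.0223). Of 4 called lower, Gadd45g, Hes6 and Tcf4 differed by -1.45, -1.26 and -0.93 (adjusted p = 0.0272, 0.0498 and 0.0181). Of 17 axon guidance genes, the ligand Efna5 was higher (0.73, SE 0.18, adjusted p = 0.037) and the receptor Ephb1 lower (-1.80, SE 0.41, adjusted p = 0.0253). Hes6 was called in 8 of 23 other settings (adjusted p 0.0225 to 0.234). In the negative comparison these 6 genes differed by 0.17 to 0.84, and none passed.

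At the other end, Hes5 was 12.08, 12.47 and 11.96 in Hes5 positive and 10.83, 8.16 and 10.24 in Pitx3 positive cells, a difference of -2.43 (SE 0.59, adjusted p = 0.032). The groups did not overlap, and a second Hes5 probe gave -2.43 as well. Between the negative fractions the sign was opposite: Hes5 was 11.67, 12.07 and 12.73 in Pitx3 negative and 9.71, 11.15 and 9.51 in Hes5 negative cells. That difference of 2.03 (SE 0.59) did not pass (adjusted p = 0.592), while without Hes5 negative replicate 2 it was 2.55 (SE 0.60, adjusted p = 0.0316). Each negative fraction was what the sort by its own reporter left, Hes5 in the one line and Pitx3 in the other. Line and sort therefore cannot be told apart in the negative comparison, for Hes5 and its pathway or for dopaminergic and other genes.

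Of 15 measured Notch pathway genes, 5 were called lower in Pitx3 positive cells, beside 2.26% of all genes, and none higher. The median was -0.76 in the positive and 0.63 in the negative comparison. Besides Hes5 they were the receptors Notch1 and Notch3, the ligand Dll1 and Nrarp, a feedback inhibitor that Notch induces. Notch1 was 8.89, 6.87 and 8.28 against 10.39, 10.05 and 10.06 (-2.15, SE 0.38, adjusted p = 0.00942). Nrarp was 10.40, 7.64 and 9.20 against 11.84, 11.49 and 11.53 (-2.54, SE 0.50, adjusted p = 0.0139). Notch3 and Dll1 were lower by -2.47 and -2.07 (log2, adjusted p = 0.0131 and 0.0139). In all 5 the lowest array was Pitx3 positive replicate 2. In negative cells Notch1, Nrarp, Notch3 and Dll1 differed by 0.49, 1.26, 0.00 and 0.17, and none passed.

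Hes1 and Hey1, further repressors of the pathway, did not pass. Hes1 was 11.55, 8.06 and 9.46 against 9.56, 11.71 and 9.92, and Hey1 was 13.23, 10.28 and 11.58 against 11.58, 13.45 and 12.35. For both genes Pitx3 positive replicate 1 was the highest array of its group, above Hes5 positive replicates 1 and 3. The differences were -0.70 and -0.76 (adjusted p = 0.66 and 0.509), and 4 of the 15 members had a positive sign.

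Genes of neural stem cells and radial glia formed the list with the most calls, 11 of 18 measured members lower and none higher. Their median was -2.24 between the positive and 0.30 between the negative fractions. For comparison, 2.26% of all genes were called lower between the positive fractions. Sox9, a transcription factor of radial glia, was 11.49, 8.83 and 10.61 in Pitx3 positive and 12.92, 13.10 and 12.55 in Hes5 positive cells (-2.55, SE 0.50, adjusted p = 0.0139). Nes, the intermediate filament nestin, was 9.78, 6.73 and 8.59 against 10.81, 11.15 and 10.88 (-2.58, SE 0.57, adjusted p = 0.0217). Ednrb, the endothelin B receptor, was 10.21, 8.53 and 9.84 against 13.44, 12.24 and 12.38 (-3.16, SE 0.59, adjusted p = 0.0118). The glutamate transporter Slc1a3 and the secreted factor Metrn were lower by -2.69 and -2.63 (log2, adjusted p = 0.0261 and 0.0381). The negative differences of these 5 genes ran from -0.01 to 0.99, and none passed. In each of these 5, Pitx3 positive replicate 1 was the highest and replicate 2 the lowest array of its group.

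**Figure D2:**
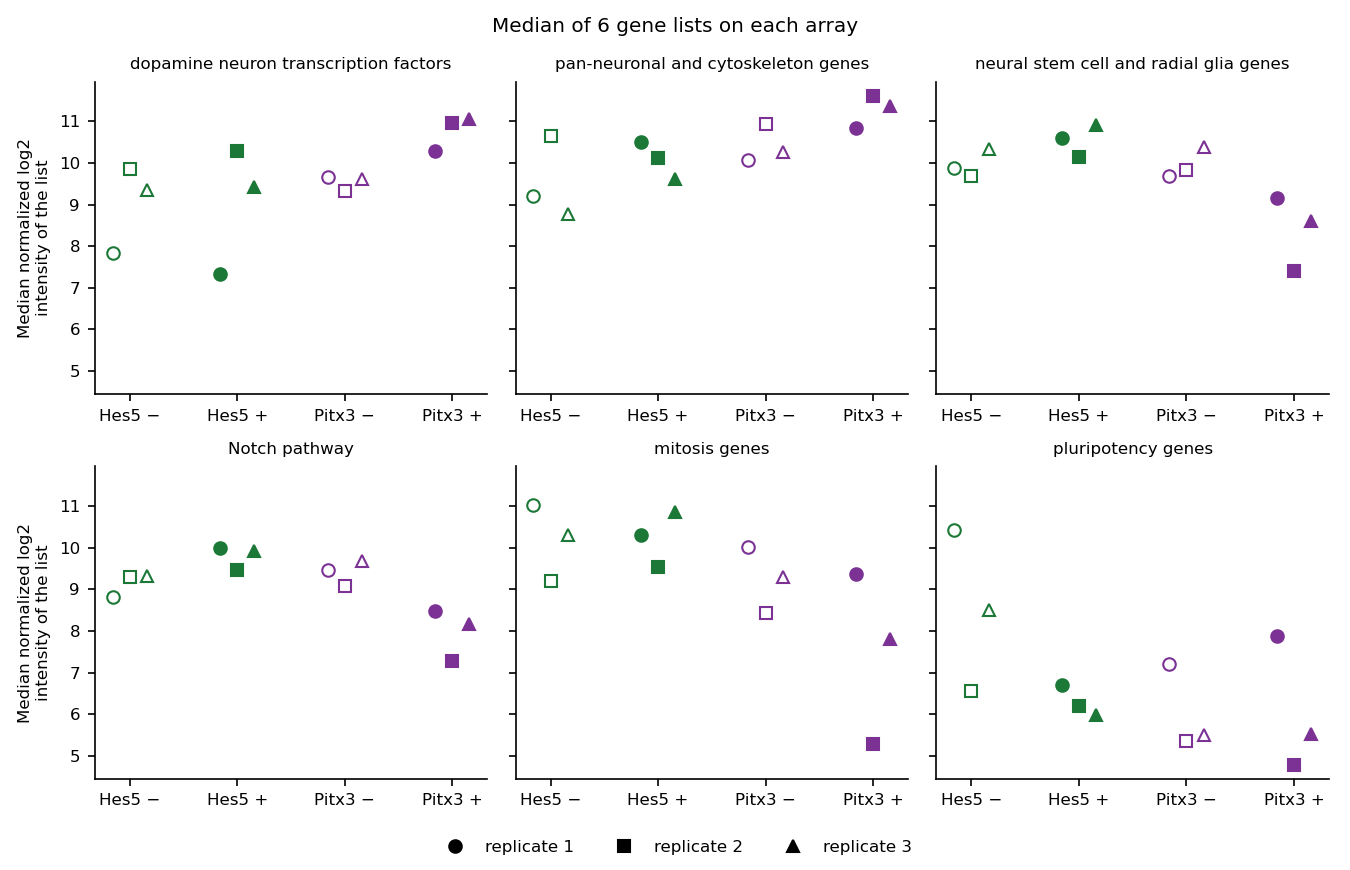
Median normalized log2 intensity (y axis) of the measured members of 6 gene lists on each of the 12 arrays of both lines (x axis groups, symbol shape gives the replicate, open symbols negative fractions). The radial glia medians of Pitx3 positive cells are 9.15, 7.39 and 8.60 in replicates 1 to 3, below every Hes5 positive array, and the mitosis medians spread from 9.38 in replicate 1 to 5.29 in replicate 2.

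Of 19 Wnt ligands, receptors and modulators, 4 were called, all lower in Pitx3 positive cells, with a list median of -0.13 and 9 members of positive sign. The share of all genes called lower was 2.26%. Wnt7a was 9.99, 7.76 and 7.93 in Hes5 positive cells and above background in no Pitx3 positive array (5.51, 5.34 and 4.85), at least 5.94-fold lower (adjusted p = 0.00662). Wnt7b was 10.69, 9.38 and 10.86 against 7.13, 5.37 and 6.71 in Pitx3 positive cells, a difference of -3.91 (SE 0.46, adjusted p = 0.000811). Between the negative fractions these ligands differed by 0.64 and 0.24, and neither passed. The receptors Fzd7 (-2.19, SE 0.51, adjusted p = 0.0276) and Fzd9 (at least 1.38-fold lower, adjusted p = 0.00477) were the other called members, at -0.62 and 0.53 in the negative comparison. Of 10 Hedgehog pathway genes, Smo, the transducer of the signal, was lower (-1.41, SE 0.27, adjusted p = 0.0139, against -0.11 in negative cells) and no other was called.

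The largest falls included the transcription factors Olig1, Dlx1 and Sall3. Olig1, of oligodendrocyte and motor neuron progenitors, was 5.21, 7.13 and 8.15 in Pitx3 positive and 13.32, 11.18 and 10.92 in Hes5 positive cells (-4.98, SE 1.15, adjusted p = 0.0265). Dlx1, of forebrain GABA neurons, was 5.23, 4.68 and 7.0 against 8.59, 8.34 and 11.12 (-3.71, SE 0.95, adjusted p = 0.042). Among the Pitx3 positive arrays Dlx1 was above background in replicate 3 alone. Sall3 was 6.82, 4.88 and 6.4 against 10.34, 8.58 and 9.16 (-3.33, SE 0.60, adjusted p = 0.00954). Of 18 neural tube patterning factors, Olig1, Nkx2-2 (-2.93, SE 0.45, adjusted p = 0.00584), Irx3 (-1.82, adjusted p = 0.0292) and Nkx6-2 (-1.63, adjusted p = 0.0331) were called lower and none higher. Over all genes the share called lower was 2.26%. Hoxb4, a gene of the posterior hindbrain, was the only call of 8 hindbrain genes (at least 2.4-fold lower, adjusted p = 0.0459), and all 8 had a negative sign. It was called in 9 of 23 other settings (adjusted p 0.0271 to 0.199). Between the negative cells Olig1 differed by -1.01, Dlx1 by 1.11, Sall3 by 0.21, Nkx2-2, Irx3 and Nkx6-2 by 0.58, 0.47 and 0.93 and Hoxb4 by -1.40, and none passed.

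Further large falls were Fgfbp3, a secreted binding protein of fibroblast growth factors, and the receptor Fgfr3. Fgfbp3 was 7.86, 6.71 and 8.48 in Pitx3 positive and 12.42, 10.82 and 12.18 in Hes5 positive cells (-4.12, SE 0.53, adjusted p = 0.0017). Fgfr3 was 6.88, 4.97 and 5.24 against 8.77, 8.29 and 9.23 (-3.07, SE 0.50, adjusted p = 0.00662). The matrix proteoglycan Bcan was above background in no Pitx3 positive array and at least 5.34-fold lower (adjusted p = 0.0179). Acss1, a mitochondrial acetyl-CoA synthetase, and Chst3, a sulfotransferase of matrix sugars, were lower by -3.15 and -3.02 (log2, adjusted p = 0.00665 and 0.00496). Fgfr3 and Chst3 were above background in Pitx3 positive replicate 1 alone of its group, so their sizes rest partly on background values. Of 9 astrocyte and oligodendrocyte genes, Olig1, Sparcl1 (at least 2.13-fold, adjusted p = 0.0179) and Nfia (-1.92, SE 0.37, adjusted p = 0.0138) were lower, and all 9 had a negative sign. Calls of all genes as lower made up 2.26%. The negative differences of Fgfbp3, Fgfr3, Bcan, Acss1, Chst3, Sparcl1 and Nfia lay between -0.20 and 0.41, and none passed.

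Cell cycle genes mostly had a negative sign with few calls. Mki67, which marks dividing cells, was 9.70, 4.97 and 7.81 in Pitx3 positive and 10.30, 10.04 and 10.88 in Hes5 positive cells. The groups did not overlap, and the difference of -2.92 (SE 0.83) missed the threshold (adjusted p = 0.0581). Without Pitx3 positive replicate 1 it was -4.02 (SE 0.69, adjusted p = 0.0033), and over 23 settings the adjusted p ranged from 0.0033 to 0.243. Of 19 mitosis genes, 18 had a negative sign (median -2.53), and Plk1 and Tpx2 were called lower, beside 2.26% of all genes. Without that array 17 of 19 were called lower, with a median of -3.53, in a fit that called 888 of all genes lower (7.02%). All 27 DNA replication and S phase genes had a negative sign (median -1.45), with Ccnd1 (-2.61, adjusted p = 0.0422) and Rrm2 (-2.39, adjusted p = 0.0394) called, and 18 were called without that array. Pbk, a mitotic kinase outside these lists, was 10.12, 5.08 and 8.48 against 11.20, 10.60 and 11.39 (-3.17, SE 0.84, adjusted p = 0.0462). Ccnd1 and Pbk were each called in 11 of 23 other settings. In the negative comparison Mki67, Tpx2, Ccnd1, Rrm2 and Pbk differed by -0.31, -0.39, 0.46, -0.61 and -0.13, and none passed. Plk1 differed by -4.54 there and was called lower, as it was between the positive fractions (-4.73). The medians of the negative comparison were -0.58 for mitosis and -0.61 for replication genes.

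The floor plate list had no call among 14 measured genes. Corin was 11.95, 9.40 and 10.19 in Pitx3 positive and 8.48, 12.90 and 12.48 in Hes5 positive cells, and Shh was 11.70, 8.11 and 9.67 against 8.98, 12.23 and 11.12. In both genes Hes5 positive replicate 1 lay below replicates 2 and 3 of its group, and Pitx3 positive replicate 1 above its own. The differences were -0.77 and -0.95 (adjusted p = 0.679 and 0.528). Hes5 positive replicate 1 was thus the lowest array of its group for Lmx1a, Foxa2, Corin and Shh and the highest for Olig1, Wnt7a and Bcan.

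Markers of other cell types were also read on the 6 arrays, where 2.05% of all genes were called higher and 2.26% lower. The summed linear intensity of 8 GABA neuron genes was 1583 to 2630 in Pitx3 positive and 3277 to 7810 in Hes5 positive cells, and Dlx1 and Slc32a1 were called lower. The sum of 12 serotonin neuron genes was 14548 to 24339 against 4369 to 14013, and its only call was Ddc, which both neuron types use. Without Ddc the other 11 genes summed to 2645 to 3363 against 3046 to 8074, and 9 of the 12 had a negative sign (median -0.66). The serotonin-specific members Tph2 (8.05, 7.15 and 7.81 against 8.26, 10.25 and 7.22), Fev and Slc6a4 did not pass, with differences of -0.91, -0.64 and -1.09 (adjusted p = 0.616, 0.769 and 0.578), against 1.34, 1.99 and 1.31 in the negative comparison. Of 5 motor and cholinergic genes, Slc18a3, the vesicular acetylcholine transporter, and Chat, which makes acetylcholine, were at least 2.63-fold and 2.24-fold higher (adjusted p = 0.03 and 0.0179), against 0.62 and 0.73 log2 in the negative comparison. Chat was 7.31, 6.81 and 6.76 in Pitx3 positive cells and above background in no Hes5 positive array, while the motor neuron factor Isl1 was 9.84, 4.62 and 5.88 against 8.71, 6.85 and 8.84.

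Pluripotency genes moved with 1 array rather than with the groups. The sum of 13 such genes was 632 to 10631 in Pitx3 positive and 1807 to 3426 in Hes5 positive cells, and none was called. The high value was replicate 1, where Pou5f1 was 7.88 against 4.75 and 5.26 in replicates 2 and 3, and Nanog 8.79 against 4.79 and 6.11. Fibroblast and smooth muscle genes summed to 591 to 4361 against 1263 to 2252, with no call of 11. Visceral endoderm genes (164 to 190 against 191 to 287) and mesoderm, muscle and endothelial genes (485 to 908 against 446 to 625) were low in both groups, with no call of 5 and of 7, and Sox17, Tek and Flt1 were above background in neither group. The part of these cells in the differences above was not tested.

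**Figure D3:**
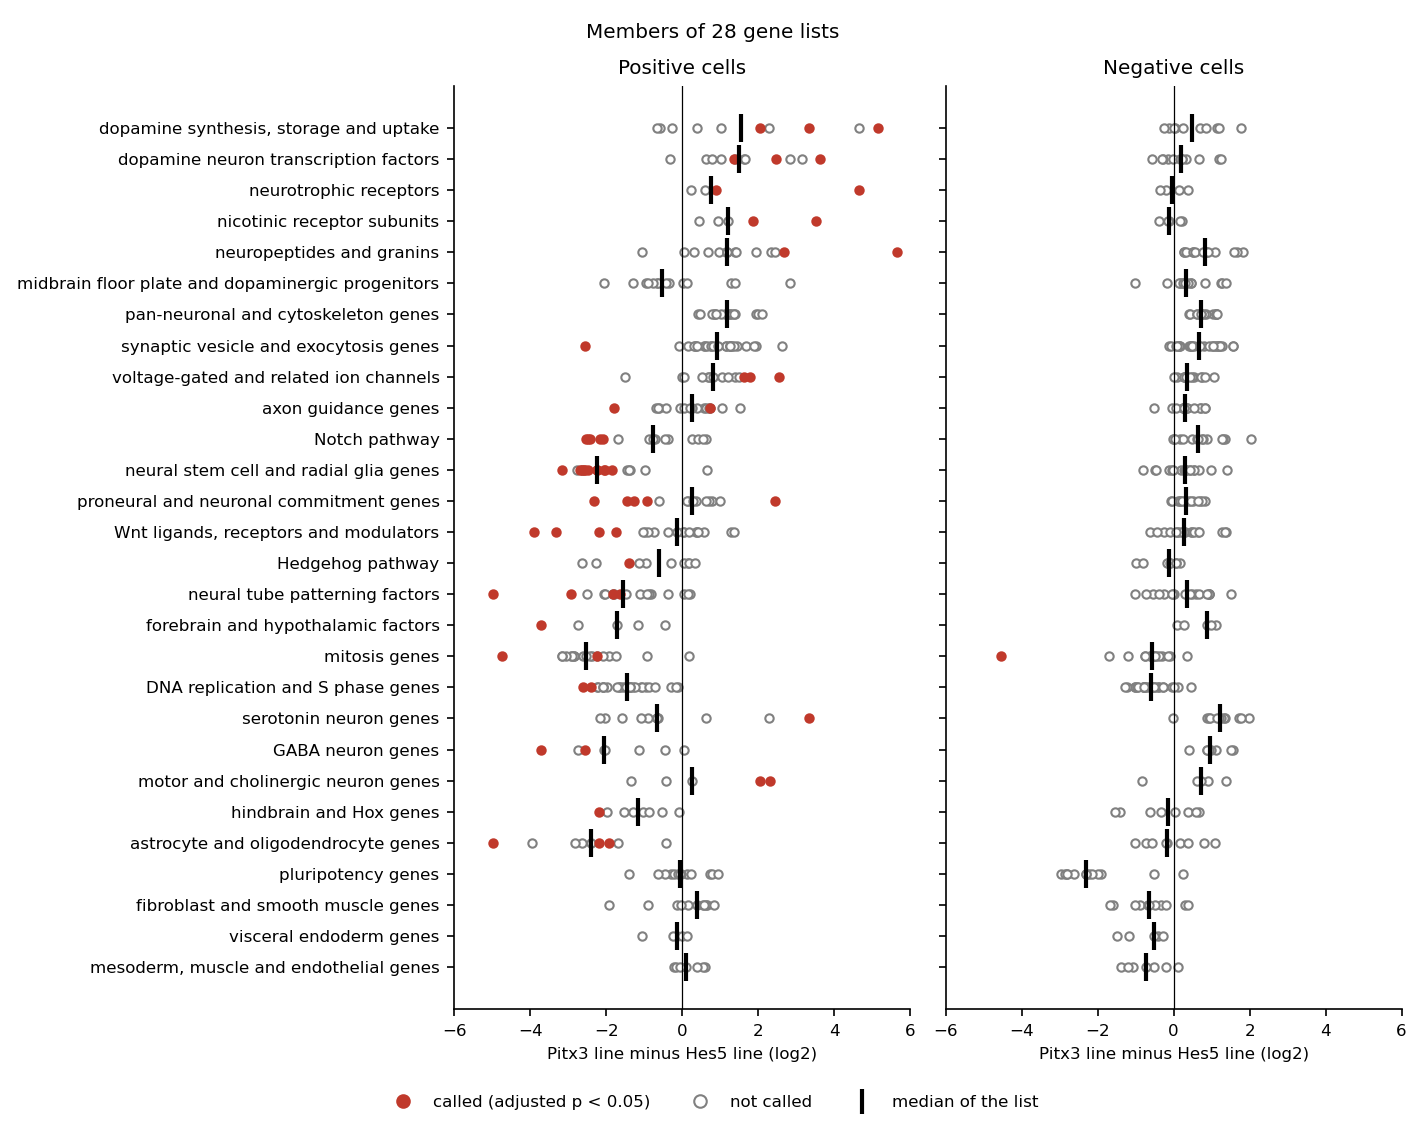
Log2 difference, Pitx3 line minus Hes5 line (x axis), of each measured member of 28 gene lists (rows) in positive (left) and negative cells (right); filled red points were called, open points were not, black bars are list medians. Radial glia, mitosis and GABA neuron medians lie at -2.24, -2.53 and -2.05 in positive cells and at 0.30, -0.58 and 0.95 in negative cells, while pan-neuronal genes lie above 0 in both.

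The negative fractions of the lines differed at few genes. Of 12650 genes, 8 were called, all lower in Pitx3 negative cells (0.0632%), and 1043 had an unadjusted p under 0.05. Of these 8 genes, 7 were also lower in the positive comparison. They were Plk1, Pou6f1, the reporter, Picalm, Ctsc and the clones D830030K20Rik and LOC277193, the last 3 named after their values were seen. The eighth, Myl3, a muscle myosin light chain, was above background in neither positive group.

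Pou6f1, a POU-domain transcription factor, was 10.44, 9.22 and 10.03 in Hes5 positive and 8.67, 8.56 and 9.10 in Hes5 negative cells. It was above background on none of the 6 Pitx3 arrays and none of the 6 Nurr1 arrays, and was at least 15-fold lower in Pitx3 positive than in Hes5 positive cells (adjusted p = 1.44e-08). Plk1, a kinase that cells need to enter mitosis, was 10.17, 8.92 and 10.43 in Hes5 positive cells and again above background on no Pitx3 or Nurr1 array, at least 14.4-fold lower (adjusted p = 0.000164). In Pitx3 negative cells Plk1 was 5.26, 5.38 and 5.31 while Mki67 was 10.70, 8.63 and 9.57, so its probe did not follow the other mitosis genes there. Each was read by 1 probe. Picalm, an adaptor of clathrin-mediated endocytosis, was 5.41, 6.22 and 6.02 in Pitx3 positive and 9.07, 8.10 and 9.18 in Hes5 positive cells (-2.90, SE 0.35, adjusted p = 0.000988), and the negative cells differed by as much (-3.19, SE 0.35, adjusted p = 0.000792). These genes separated the lines rather than the fractions, and what sets the lines apart was not tested.

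The reporter was read by an EGFP probe, which gave signal in the YFP line too. It was 13.73, 13.54 and 13.64 in Hes5 positive and 9.97, 11.12 and 10.98 in Pitx3 positive cells (-2.95, SE 0.53, adjusted p = 0.00967). The negative cells differed alike, 6.39, 6.52 and 6.07 in the Pitx3 line against 9.51, 11.12 and 8.48 in the Hes5 line (-3.38, SE 0.53, adjusted p = 0.0302). The probe's match to each reporter and the number of transgene copies were not known, so these levels do not compare the strength of the reporters.

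**Figure D4:**
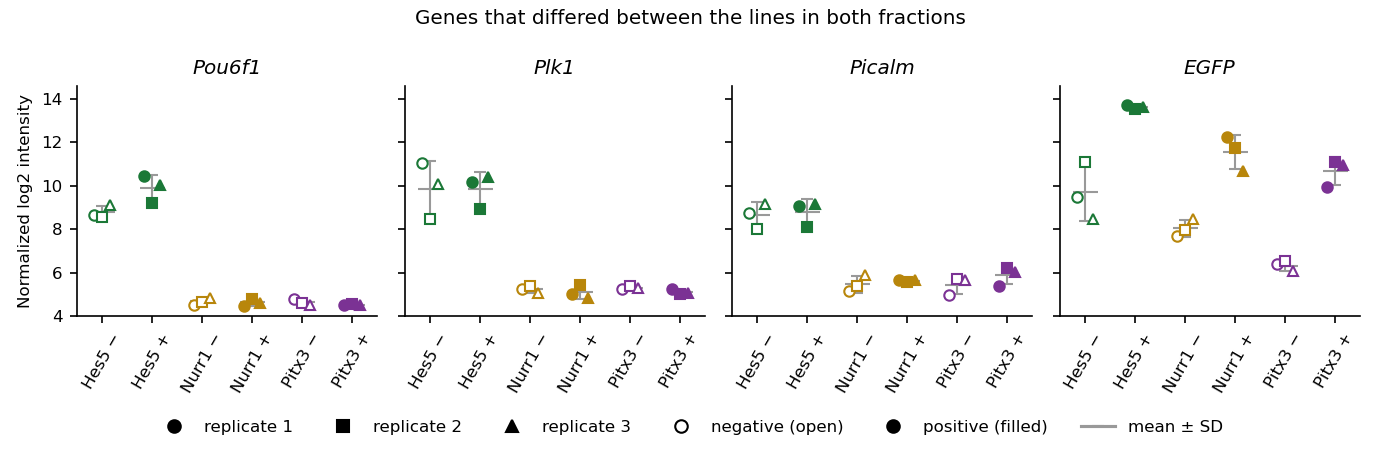
Normalized log2 intensity (y axis) of 4 genes that differed between the lines in both fractions, in the 6 groups (x axis; open symbols negative, filled positive, shape gives the replicate, grey bars mean and SD of 3 arrays). Pou6f1 and Plk1 of all Nurr1 and Pitx3 arrays lie below 6, and all 6 Hes5 arrays lie above 8.

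The negative comparison rested on Hes5 negative replicate 2. Without it 623 genes were called between the negative fractions, 264 higher and 359 lower. Of the 259 genes higher in Pitx3 positive cells, 21 (8.11%) were then also called higher in negative cells, beside 2.09% of all genes. Of the 286 lower genes, 13 (4.55%) were also called lower, beside 2.84% of all genes, and 2 were called in the opposite direction. Pluripotency genes were among the falls, with 6 of 13 called lower and a median of -3.44. In Hes5 negative cells their summed intensity was 2083 to 29330, against 761 to 8783 in Pitx3 negative cells, and their median log2 level was 10.43, 6.57 and 8.51 in replicates 1 to 3, lowest in replicate 2.

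The 545 called genes were chosen on the positive arrays, so their negative differences are given as a description with no test. Of the 259 higher genes, 216 (83.4%) had the same sign in negative cells, but the negative difference was at least 50% of the positive one in 42 (16.2%) and as large in none. Its median was 0.32. Of the 286 lower genes, 156 (54.5%) had the same sign, 23 (8.04%) reached 50% and 3 were at least as large, with a median of -0.04. Over all genes, the sign was the same for 73.7% of those with a positive and 66.2% of those with a negative difference between the positive fractions, and the negative difference reached 50% of it in 49.8% and 42.8%.

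**Figure D5:**
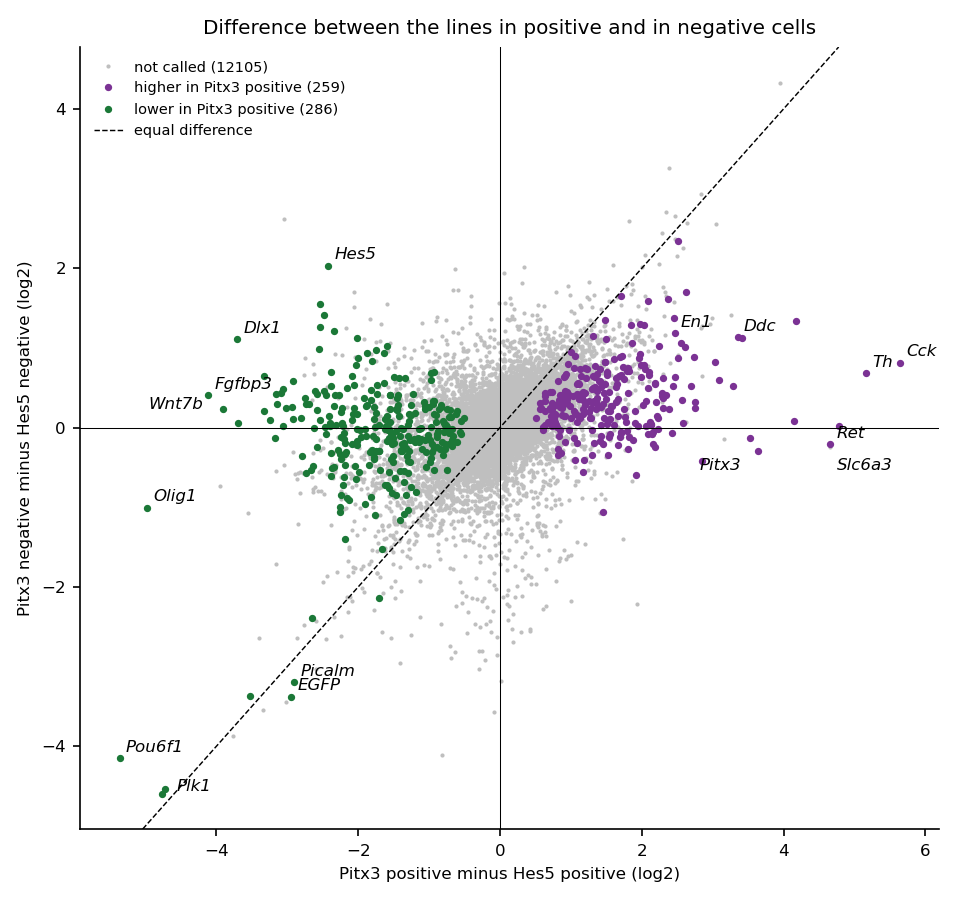
Log2 difference between the positive fractions (x axis) against that between the negative fractions (y axis) for 12650 genes; purple points were called higher (259) and green points lower (286) in Pitx3 positive cells, grey points were not called, and the dashed line marks equal differences. Th, Cck and Ret lie far right near a negative difference of 0, Hes5 and Dlx1 lie upper left, and Pou6f1, Plk1, Picalm and EGFP lie near the dashed line.

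The difference of the comparisons was tested itself. It equals the positive minus negative difference within the Pitx3 line, less that within the Hes5 line. Without regard to replicate numbers it passed for 7 genes (0.0553%), with 989 at an unadjusted p under 0.05. The ubiquitin ligase adaptor Kctd6 was the only higher one. It was 10.66, 11.02 and 10.57 in Pitx3 positive and 8.60, 9.32 and 8.86 in Hes5 positive cells, while all 6 negative arrays lay between 8.95 and 9.29 (difference of the comparisons 1.94, SE 0.32, adjusted p = 0.0472). Wnt7b, Fgfbp3, Fzd9 and Sox2ot, a long noncoding RNA that overlaps Sox2, were lower by -4.15, -4.53, -2.28 and -2.88 (adjusted p = 0.0465, 0.0472, 0.0465 and 0.0433). The count was 139 without Pitx3 positive replicate 1, 38 without Hes5 negative replicate 2 and 16 without Hes5 positive replicate 2, and at most 2 in 8 of the other 9 removals.

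The same-numbered fractions of a line varied together, with correlations of their deviations from the group means of 0.438 to 0.772 in all 9 pairs. When same-numbered fractions of each line were blocked in the fit, the difference passed for 414 genes, 161 higher (1.27%) and 253 lower (2%), with 2669 at an unadjusted p under 0.05. Among the 259 higher genes 77 (29.7%) passed in the same direction, and among the 286 lower genes 132 (46.2%). These genes were chosen on the positive arrays, which also enter this difference, so these shares are a description with no test. The dopaminergic genes Slc6a3 (4.91, SE 0.87, adjusted p = 0.0311), Ret (4.86, SE 0.68, adjusted p = 0.0222), Cck (4.83, SE 0.52, adjusted p = 0.0177) and Th (4.48, SE 0.68, adjusted p = 0.0231) led the rises, with Nr4a2 (3.30, SE 0.50, adjusted p = 0.0231) and Pitx3 (3.93, SE 0.45, adjusted p = 0.0177) also called. Slc6a3 and Nr4a2 thus passed here and not in the positive comparison. The differences of Slc6a3, Ret, Cck and Th depended on blocking, and each passed in 2 of 23 settings other than the unblocked fit. Over those settings limma's adjusted p reached 0.9997, 0.368, 0.657 and 0.895. Hes5 (-4.46, SE 0.68, adjusted p = 0.0231) and Dlx1 (-4.82, SE 0.67, adjusted p = 0.0222) were among the largest falls. By list, 10 of 18 radial glia genes and 7 of 15 Notch genes passed as falls and 2 of 19 mitosis genes did. The count was 0 without Hes5 replicate pair 3 or without Pitx3 replicate pair 2 or 3, 240 and 655 without Hes5 pairs 1 and 2, and 658 without Pitx3 pair 1.

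Nurr1 positive cells, the middle of the stage series, lay between the ends for most called genes. Their mean was between the Hes5 and Pitx3 positive means for 245 of the 259 higher genes (94.6%) and 248 of the 286 lower genes (86.7%), beside 54.3% of all genes. The genes were chosen on the ends, so this is a description with no test. With the Hes5 mean set to 0 and the Pitx3 mean to 1, the median position was 0.641 for higher and 0.675 for lower genes. Th was 12.52 ± 0.61 (SD, n = 3) in Nurr1 positive cells, between 8.30 ± 2.48 in Hes5 positive and 13.46 ± 0.74 in Pitx3 positive cells. The Nurr1 positive mean of Th lay below every Pitx3 positive array, but the arrays of these groups overlapped. Nr4a2 was 10.59 ± 0.38 against 10.73 ± 0.75 in Pitx3 positive cells, a smaller gap than either spread. Cck was 9.30 ± 0.71, well below the 11.66 ± 0.35 of Pitx3 positive cells, and Pitx3 was 7.81 ± 0.38 against 9.16 ± 1.27. Hes5 was 9.41 ± 0.69 in Nurr1 and 9.74 ± 1.40 in Pitx3 positive cells, alike within their spread.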

How the data were processed

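Gene expression was measured on 18 Illumina arrays, 3 for each of 6 groups. The scanner table deposited by the authors holds linear bead intensity for 45281 probes, per the file headers with no normalization between arrays. Detection p-values and a count of beads per probe are also deposited there, per the file headers. The authors also deposited log2 intensities of 31441 genes. GenomeStudio and Partek are named, with no version, in the submitters' processing notes. Probes were tied to 30328 genes (96.5%) by equal values in both tables, and names updated through RefSeq (GRCm38.p6, 13415 as symbols, 5594 as synonyms, 12432 kept as deposited). A further 18 columns, of bead spread, were not used here.

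Background correction, quantile normalization and log2 transformation used neqc of limma 3.58.1 (offset 16) under R 4.3.3. Probes with a detection p under 0.01 in at least 3 arrays were kept (18737, of which 2503 had no gene), and the probe of highest mean stood for each of 12650 genes. Differences were tested with limma (two-sided, lmFit and eBayes) over all 6 groups together, which left 12 residual degrees of freedom, with p-values adjusted by Benjamini-Hochberg over all genes and called under 0.05. The replicate block within lines left 6. Same-numbered Pitx3 and Hes5 positive arrays were not paired (correlations of deviations -0.15, 0.07 and -0.14). With 3 arrays a group, their number limits the precision.

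Named genes were Th, Slc6a3, Wnt7a, Hes5, Nr4a2, Pitx3, EGFP and Mki67 whatever their p, the 15 largest rises and falls without overlap, up to 5 called members per list and direction, the 5 largest calls of the negative comparison and the 6 largest per direction of the difference, without clone and predicted names; some that the rule names are not reported here. List members that the background speaks of, and markers of other cell types, were also named. The comparison, the 28 gene lists and this rule were chosen with earlier results of these data known. The scripts were tested on simulated data. Alternatives were other normalizations, filters, probe rules, fits and blocks, and leaving out each array. Python 3.11.15 with numpy 2.4.6, pandas 2.3.3 and matplotlib 3.10.9 served for matching and plots.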

Additional observations from a re-analysis of the deposited data

Results flagged for a closer look

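The difference between the lines changed from negative to positive cells, by limma's test of that change, for the following named genes. Values are the positive minus the negative comparison on the log2 scale. Without the replicate block they were 1.94 for Kctd6, -4.53 for Fgfbp3, -4.15 for Wnt7b, -2.88 for Sox2ot and -2.28 for Fzd9. With the block they were 4.91 for Slc6a3, 4.86 for Ret, 4.83 for Cck, 4.48 for Th, 4.14 for Slc39a4, 4.07 for Necab1, -5.67 for Serpina3n, -4.82 for Dlx1, -4.53 for Fgfbp3, -4.46 for Hes5, -4.15 for Wnt7b and -4.10 for Slc32a1. Of 23 settings other than the unblocked fit, Kctd6, Fgfbp3, Wnt7b, Sox2ot and Fzd9 passed in 8 to 11. Hes5, Slc39a4 and Slc32a1 passed in 4, Serpina3n in 3, and Slc6a3, Ret, Cck, Th, Necab1 and Dlx1 in 2. Slc39a4, a zinc transporter, and Serpina3n, a protease inhibitor of reactive glia, did not pass in either comparison alone and had opposite signs in the positive (1.93 and -3.05) and the negative cells (-2.22 and 2.62). Without Hes5 negative replicate 2, whose labels conflict, both passed limma's test between the negative fractions, at -2.98 (adjusted p = 0.0114) and 3.81 (adjusted p = 0.0438). Serpina3n was 10.30, 10.49 and 8.62 in Hes5 positive and 5.70, 8.88 and 4.90 in Hes5 negative cells, and 6.71, 6.48 and 7.06 in Pitx3 positive and 7.80, 11.01 and 8.53 in Pitx3 negative cells.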

How the results depend on the processing

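Of 70 named genes called between the positive fractions, none changed sign in any setting, and between 2 (6 arrays alone) and 70 stayed called. Leaving out negative arrays, fitting the 6 or 12 arrays alone and adding blocks leave this difference unchanged, so no sign could change there. The 545 calls between the positive fractions became 204 in the 12 arrays of both lines alone, 4 in the 6 arrays compared, 344 in the deposited log2 table, 336 without a filter and 1480 with a replicate block across lines, and ranged from 78 to 1528 on leaving out 1 array. The 8 calls between the negative fractions became 5 in the 12 arrays, 1 in the 6 arrays, 5 by quantile normalization without background correction and 5 without a filter, and ranged from 5 to 623 on leaving out 1 array. The 7 calls of the difference became 0 in the 12 arrays, 0 without normalization, 0 in the deposited table, 1 by cyclic loess, 1 without a filter, 757 with a random replicate block (consensus correlation 0.595) and 414 with the replicate block within lines, and ranged from 0 to 139 on leaving out 1 array. The blocked 414 became 3 in the 12 arrays and 67 without a filter, and ranged from 0 to 658 on leaving out 1 pair, as added after seeing the data. The 6 arrays compared alone cannot give the difference. Apart from fewer arrays or more genes tested, the cause of these changes was not tested. Low genes are limited by background: 56 of the 259 higher and 53 of the 286 lower genes had only a bound.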

Other observations

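Eif2s3y, a Y-linked translation factor gene chosen after its values were seen, was 5.61, 7.61 and 4.94 in Hes5 positive and 8.19, 8.70 and 9.14 in Pitx3 positive cells (2.62 log2 higher, SE 0.52, adjusted p = 0.0143), and differed by 1.70 between the negative fractions (adjusted p = 0.592). Of the Hes5 positive arrays, only replicate 2 was above background for Eif2s3y. It was above background on none of the 6 Nurr1 arrays, all of them J1 cells by their labels. Ddx3y, another Y-linked gene, was 8.78, 9.28 and 9.60 in Hes5 positive and 9.15, 9.75 and 9.95 in Pitx3 positive cells, and did not pass (adjusted p = 0.586). Unlike Eif2s3y, Ddx3y was above background on all 6 Nurr1 arrays, at 8.79, 7.30 and 8.89 in Nurr1 positive cells. The cause of this was not tested.

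Slc17a6, the vesicular glutamate transporter, was 12.31, 13.23 and 13.45 in Pitx3 positive and 9.30, 11.40 and 10.42 in Hes5 positive cells, a difference of 2.62 that did not pass (adjusted p = 0.0621). Between the negative fractions it differed by 0.07.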
